A study of Mus musculus with 14 samples.

Results

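The genes described here were Apoe, the gene disrupted in these mice, and 6 neighbours on chromosome 7: Apoc1, Apoc2, Apoc4, Tomm40, Clptm1 and Relb. They were chosen by symbol and place, whatever their values, and made up 7 of the 17552 genes in the deposited table. Liver polyA RNA came from male, Apoe-deficient C57BL/6 mice (C57BL/6J in the study's methods) whose age is labelled as 8 weeks. The control group (7 libraries) received a Western diet and the erythrodiol group (7 libraries) the same diet with 10 mg/kg of erythrodiol, a triterpene found in olives. The labels give 8 weeks on the diets and the study's methods a longer time, so the labelled age cannot be the age at sampling. Both groups carried the Apoe deficiency, no wild-type liver was analysed here, and each library was made from RNA pooled over 2 or 3 mice. The question was which hepatic transcripts differ with erythrodiol in the diet.

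The gene table held 1 expected count per group, the sum over its 7 libraries, so no value had a spread between livers and no difference was tested. Intervals given below are 95% counting intervals. They cover only the counting error of independent reads. Reads amplified by PCR are not independent molecules, so the intervals may be too narrow, and they say nothing of variation between mice. Gene counts totalled 122889032 for control and 124686047 for erythrodiol. Clean reads per library ranged from 34856340 to 55244294 for control and from 47669656 to 48058606 for erythrodiol, and 64.3% to 81.4% and 73.0% to 76.1% of them, respectively, mapped to genes. Ratios are log2 of erythrodiol over control after scaling by these column totals, and a gene was called higher or lower past a log2 ratio of 0.32 in that direction, if control and erythrodiol together had 100 counts or more. On this scale the median of the 13291 genes with that many counts was 0.16, so each locus gene is also given relative to that median. Shorter genes had lower ratios, with a median of -0.40 for the 299 genes under 700 bases and 0.25 for the 6812 genes of at least 2800 bases, so the ratio relative to the 500 genes nearest in length is given as well.

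Apoe encodes apolipoprotein E, a ligand through which lipoprotein remnants are taken up by receptors on liver cells. In liver it is made by hepatocytes and also by macrophages. Next to it lie genes of small apolipoproteins of triglyceride-rich particles: apoC-I, which hinders remnant uptake and inhibits CETP, apoC-II, the cofactor of lipoprotein lipase, and apoC-IV, a minor apolipoprotein made mainly in liver. Hepatocyte expression of the cluster depends on control regions shared by several of its genes. Tomm40 encodes the channel of the outer mitochondrial membrane for imported proteins, Clptm1 a membrane protein of the endoplasmic reticulum that acts in receptor trafficking, and Relb a subunit of NF-kB in the non-canonical pathway.

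All 7 genes lay on the minus strand of chromosome 7 within 109226 bases of GRCm38. In order of coordinate they were Relb (chr7:19606217-19629438), Clptm1 (chr7:19631580-19665030), Apoc2 (chr7:19671579-19677941), Apoc4 (chr7:19678084-19681460), Apoc1 (chr7:19689480-19692659), Apoe (chr7:19696244-19701310) and Tomm40 (chr7:19701313-19715442). Transcription runs from Tomm40 towards Relb. In these RefSeq spans, Tomm40 and Apoe were separated by 2 bases, Apoe and Apoc1 by 3584 bases, Apoc1 and Apoc4 by 8019 bases, and Apoc4 and Apoc2 by 142 bases. In GENCODE M21 the furthest Apoe start was at chr7:19699188, inside the RefSeq span, so the short gap to Tomm40 holds for RefSeq only.

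The sequence that bears on reading an Apoe count in this genotype is the join of coding exons 3 and 4. In the widely used Apoe knockout line the targeting replaced the end of exon 3 and the start of the intron after it, while the labels name no allele. It is shown from GENCODE M21 with exon 3 (chr7:19697479-19697647, minus strand) in lower case and the first 60 coding bases of exon 4 (chr7:19697044-19697103) in capitals.
Apoe exon 3 to exon 4: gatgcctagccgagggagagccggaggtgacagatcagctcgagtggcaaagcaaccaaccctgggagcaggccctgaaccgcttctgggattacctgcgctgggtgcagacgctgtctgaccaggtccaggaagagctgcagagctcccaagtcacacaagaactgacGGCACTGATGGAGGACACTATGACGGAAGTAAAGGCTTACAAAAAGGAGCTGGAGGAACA

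The other sequences shown are the joins that tell Apoc4, Apoc2 and the annotated Apoc4-Apoc2 read-through gene, Gm44805, apart. Each has the last 15 bases of exon 1 in lower case and the first 15 of exon 2 in capitals. The read-through join has the left side of the Apoc4 join and the right side of the Apoc2 join, so a read that lies outside such a join can belong to more than 1 of these genes.
Apoc4 exon 1 to exon 2: tggtcagctttgtagCATCCATGTCTACAG
Apoc2 exon 1 to exon 2: aagtcttagaggccgGCCTGCCACCCCACC
Gm44805 exon 1 to exon 2: tggtcagctttgtagGCCTGCCACCCCACC

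Reads were assigned to Apoe in both groups. Apoe had 9403 counts with the control diet and 8293 with erythrodiol. Per length this was 99.6 and 96.2 TPM (transcripts per 1000000, computed here from the counts and the lengths in the table), which ranked Apoe 1023 and 1197 among the 17552 genes. These counts cover the whole gene, so they do not show whether the disrupted stretch was transcribed and cannot serve as a check of the genotype label. The study itself reports a lack of hepatic Apoe expression in its Apoe-deficient mice by RT-PCR, which reads only the stretch between its primers. How that result relates to the counts here was not tested. The level of Apoe was far below that of Apoa1, the main HDL apolipoprotein, whose gene on another chromosome was intact: Apoa1 had 10901 and 13355 TPM, 109 and 139 times the Apoe level per length. It was also below 3 of the 6 neighbours.

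Per length, the order of the 7 genes was the same in both groups: Apoc1, Apoc4, Apoc2, Apoe, Clptm1, Tomm40 and Relb. Apoc1 had 7684 TPM in control and 9370 TPM in erythrodiol liver and ranked 16 and 13 among all genes. Apoc4 had 1458 and 1432 TPM and Apoc2 had 621 and 677 TPM. Clptm1 had 53.1 and 74.8 TPM, Tomm40 26.0 and 32.0 TPM, and Relb 4.33 and 4.74 TPM. The liver-enriched apoC genes thus lay above Apoe and the 3 broadly expressed genes below it. Whether genes next to each other in this order differ beyond the variation between livers cannot be read from 1 value per group.

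**Figure D1:**
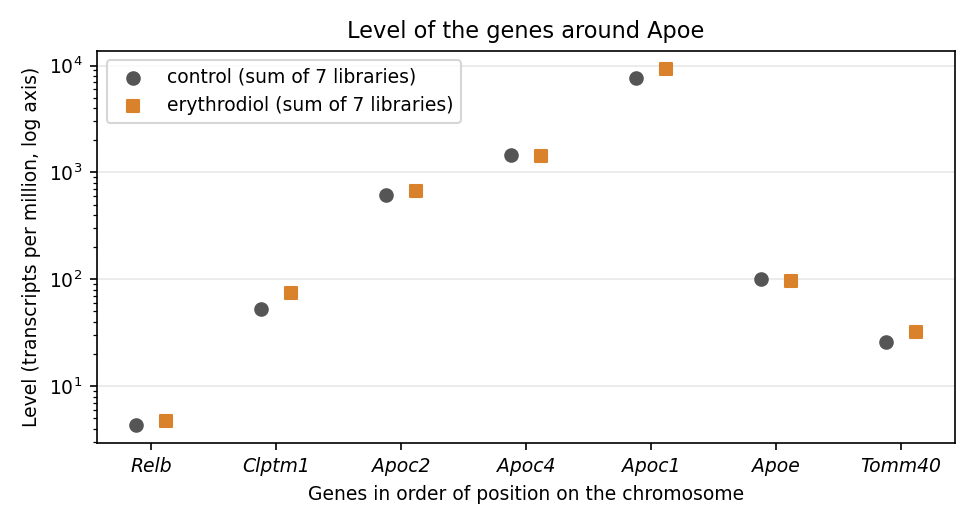
Level of each locus gene in TPM on a log axis, with genes in order of position, circles for the control group and squares for the erythrodiol group, each from the sum of 7 libraries. The 3 apoC genes lie between 621 and 9370 in both groups, and Apoe lies near 100.

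Together the 7 genes took 0.294% of all gene counts in control and 0.310% in erythrodiol liver. Apoc1 alone took 0.202% and 0.222%. As shares of TPM the 7 genes took 0.995% and 1.17%, of which Apoc1 made up 0.768 and 0.937 percentage points. Tomm40, Clptm1 and Relb together took 0.0120% and 0.0146% of the counts.

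Between the groups, the Apoe ratio was -0.20 (95% counting interval -0.24 to -0.16), which is 0.869 of the control value. Relative to the median of all genes it was -0.36, and relative to genes of like length -0.19. The Apoe ratio was higher than that of 31.4% of the 500 genes nearest to it in length, which spanned 1177 to 1353 bases. It was below 0 under each scaling tried, and past the threshold only after the median was subtracted.

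Apoc1, with 248832 and 277055 counts, had a ratio of 0.13 (0.13 to 0.14), or -0.03 relative to the median of all genes. At 433 bases it is a short transcript, and relative to genes of like length its ratio was 0.47, above 87.8% of those 500 genes. Apoc4, with 56498.62 and 50648.11 counts, had a ratio of -0.18 (-0.20 to -0.16), which was -0.34 relative to the median and 0.16 relative to genes of like length. Apoc2, with 32031.59 and 31895.58 counts, had a ratio of -0.03 (-0.05 to -0.00), which was -0.19 relative to the median and 0.22 relative to genes of like length. The direction for these 3 apoC genes therefore turned with the scaling. Apoc1 was below 0 against the median of all genes, Apoc4 was above 0 against genes of like length, and Apoc2 was above 0 against genes of like length and as a ratio of TPM. Ratios of TPM lie above those scaled by totals, with a median of 0.31 over all genes. On that scale Apoc1 was at 0.29, Apoc2 at 0.13, Apoc4 at -0.03 and Apoe at -0.05.

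Clptm1, with 10932 and 14062 counts, had the highest ratio of the 7 genes scaled by totals, 0.34 (0.31 to 0.38), or 1.27-fold. It was 0.18 relative to the median and 0.19 relative to genes of like length. Tomm40, with 3059 and 3443 counts, had a ratio of 0.15 (0.08 to 0.22), which was -0.01 relative to the median and 0.11 relative to like length, so its direction also turned under the median. Relb, with 702 counts in each group, had a ratio of -0.02 (-0.17 to 0.13), and its interval was the widest of the 7. Relb was -0.18 relative to the median, -0.13 relative to like length and 0.13 as a ratio of TPM, so its direction turned there. As ratios of TPM, Clptm1 was at 0.49 and Tomm40 at 0.30.

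Scaled by totals, 1 of the 7 locus genes was called higher (Clptm1) and 0 lower, with a median of -0.02. Over all genes with at least 100 counts, 24.4% were called higher and 8.89% lower. With the median subtracted, 0 were called higher and 2 lower (Apoe and Apoc4), and over all genes 6.31% and 16.6%. Relative to genes of like length, 1 was called higher (Apoc1) and 0 lower, against 5.94% and 13.6% of all genes. Without the 20 genes of highest count in the totals, 0 locus genes were called, against 12.9% and 12.5% of all genes. No locus gene was past 1.5-fold in either direction when scaled by totals, against 2.55% higher and 3.14% lower of all genes, nor past 2-fold, against 0.218% and 0.549%. Clptm1 remained the 1 gene called with a pseudocount of 1 (24.3% and 8.85% of all genes), and also as a ratio of TPM (48.9% and 5.20% of all genes). The background by totals was 25.6% and 11.9% with a minimum of 10 counts and 27.2% and 15.7% with none.

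**Figure D2:**
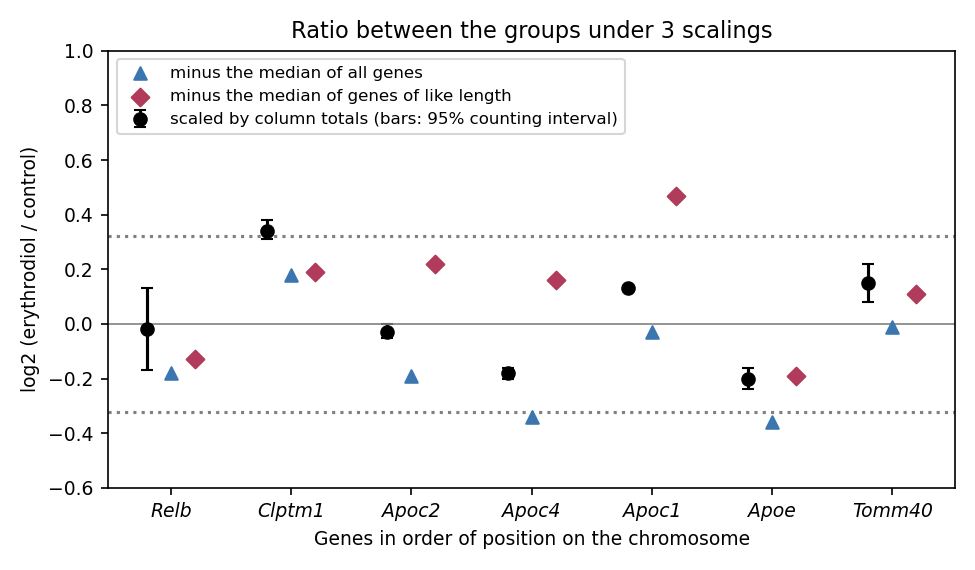
Log2 ratio of erythrodiol to control for each locus gene under 3 scalings, with 95% counting intervals on the values scaled by totals and dotted lines at the call thresholds, 0.32 in either direction. Clptm1 at 0.34 is the only circle past a dotted line, and the apoC genes spread from below 0 to 0.47 depending on the scaling.

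Ratios between genes within a group do not depend on the scaling by totals or by the median. Apoc1 per length was 77.1 times Apoe in control and 97.4 times in erythrodiol liver, a log2 change of 0.34 (0.29 to 0.38). Apoc4 was 14.6 and 14.9 times Apoe, a change of 0.02 (-0.02 to 0.07) that was within counting error. Apoc1 was 5.27 and 6.54 times Apoc4, a change of 0.31. The trend with transcript length is still in these changes. Relative to genes of like length, the change was 0.35 for Apoc4 to Apoe, 0.66 for Apoc1 to Apoe and 0.31 for Apoc1 to Apoc4, so the near-constant proportion of Apoc4 to Apoe held only for the values without regard to length. Apoa1 was 1.42 and 1.43 times Apoc1, a change of 0.01 (-0.00 to 0.02), which was -0.20 relative to genes of like length.

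Clptm1 downstream and Tomm40 upstream shifted against Apoe as well. Apoe had the lowest ratio of the 7 genes scaled by totals, so every neighbour rises against it on that scale. Relb was nearer to Apoe, at -0.02 against -0.20 by totals and -0.13 against -0.19 relative to like length. Clptm1 was 0.533 and 0.778 of Apoe per length, a log2 change of 0.54. Apoe was 3.83 and 3.00 times Tomm40, the gene whose RefSeq span ends 2 bases before that of Apoe, a change of -0.35. Relative to genes of like length, the change was 0.37 for Clptm1 to Apoe and 0.29 for Tomm40 to Apoe.

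The counts of Apoc4 and Apoc2 were not whole numbers in the groups, whereas those of the other 5 locus genes were. RSEM gives such fractions when reads are shared out among genes, and 3378 of the 17552 genes (19.2%) had a count more than 0.005 from a whole number in a group. Gm44805 had 826.81 and 989.3 counts, and a ratio of 0.24. The counts of Apoc4, Apoc2 and Gm44805 summed to 89357.02 and 83532.99, which is 0.02 and 0.01 from a whole number. The ratio of that sum, which does not depend on how reads were shared among the 3 genes, was -0.12 (-0.13 to -0.10), or -0.28 relative to the median of all genes. The separate Apoc4 and Apoc2 values are therefore less certain than their counting intervals state.

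Over the wider region, 64 genes were annotated within 500 kb of Apoe, 42 were in the table and 32 had at least 100 counts. Of these 32, 9 were called higher and 1 lower, with a median of 0.14, beside 24.4% and 8.89% of all genes. Without the 7 locus genes the 25 others had 8 higher and 1 lower and a median of 0.19. Igsf23 had the highest ratio at 0.62, followed by Ppp1r13l at 0.57, which encodes an inhibitor of NF-kB and p53. Exoc3l2 was at 0.45, the kinase gene Mark4 at 0.41, Clasrp at 0.36, the DNA repair gene Ercc1 at 0.34, Opa3 at 0.33 and Bcl3 at 0.32. Ceacam16, with 72.83 and 57.3 counts, was the 1 gene called lower, at -0.37. Nectin2, the nearest gene beyond Tomm40, had 6099 and 6644 counts. With the median subtracted the calls were 2 higher and 3 lower, beside 6.31% and 16.6% of all genes.

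**Figure D3:**
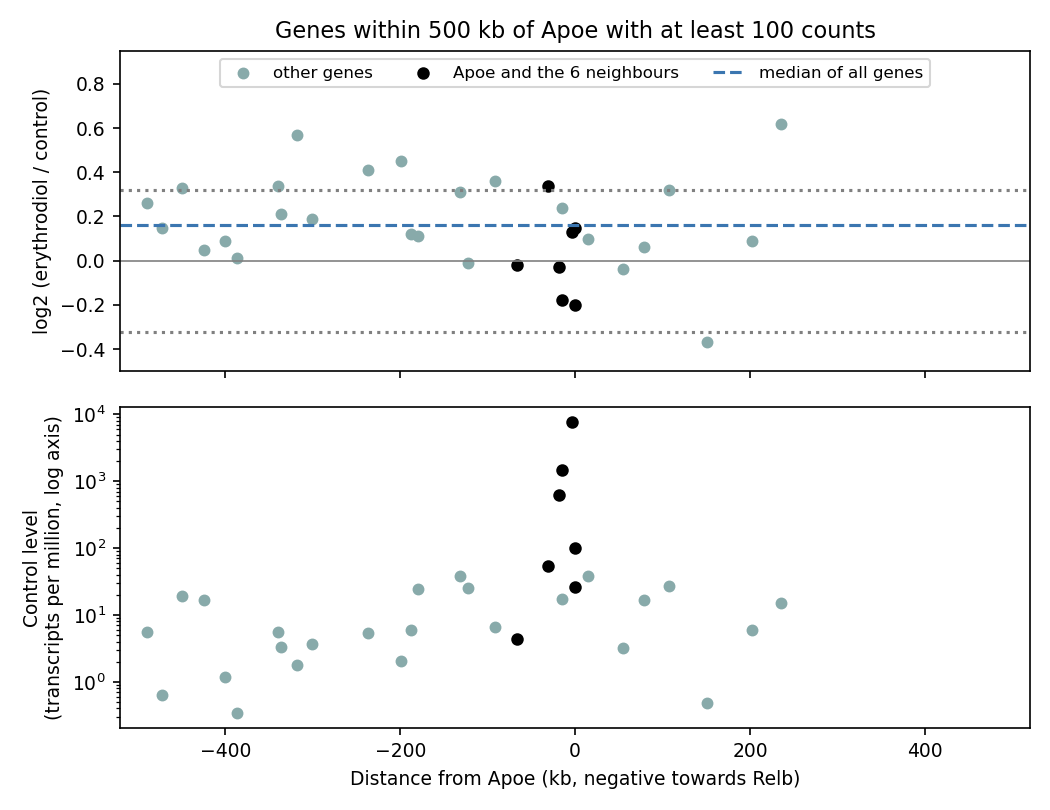
The top panel gives the log2 ratio, and the bottom panel the control level on a log axis, of the 32 genes within 500 kb of Apoe with at least 100 counts, by distance from Apoe in kb. Black points are the 7 locus genes, of which Apoe and Apoc4 have the lowest ratios at -0.20 and -0.18, and the 3 apoC genes stand above every other gene in level.

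Among the partners of these genes, the receptors for apoE- and apoC-bearing particles had 3 of 6 measured members called higher and 0 lower, with a median of 0.19, beside 24.4% and 8.89% and a median of 0.16 over all genes. Lsr, the lipolysis-stimulated receptor, was at 0.43, Scarb1, the HDL receptor, at 0.38 and Lrp1, a remnant receptor, at 0.33. Vldlr was lowest at -0.25 and Lrp8 had under 100 counts. With the median subtracted, 0 of the 6 were called higher and 1, Vldlr, was called lower, beside 6.31% and 16.6% of all genes.

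The lipase axis, on which apoC-II acts, had 0 of 8 genes called in either direction and a median of -0.03, with ratios from -0.19 for Gpihbp1, the anchor of lipoprotein lipase on capillaries, to 0.19 for Lmf1, a chaperone of lipases. Of 13 targets of LXR, the oxysterol receptor that also regulates Apoe and the apoC genes, 1 was called higher and 1 lower, with a median of 0.13, again beside 24.4% and 8.89% of all genes. These were Cyp7a1, the rate-limiting enzyme of bile acid synthesis, at 2.38-fold (11875 and 28636 counts) and Smpdl3a at -0.33.

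For Tomm40, 7 other genes of the TOM complex included 1 called higher and 2 lower, with a median of -0.04, beside the same shares of all genes. Tomm40l, its paralog, was at 0.36. Of the small subunits, Tomm7 and Tomm5 were at -0.93 and -0.61, while Tomm6 was at 0.07. Tomm5 has 654 bases in the table and Tomm7 1126, and relative to genes of like length they were at -0.34 and -0.88. Tomm6 was at 0.20 on that scale. For Relb, 12 NF-kB genes included 2 called higher and 0 lower, with a median of 0.19, while 24.4% of all genes were called higher and their median was 0.16. The 2 were Ikbkg, the regulatory subunit of the IKK complex, at 0.34 and Bcl3, an atypical IkB protein, at 0.32. Nfkbie was lowest at -0.06. With the median subtracted no NF-kB gene was called, beside 6.31% higher and 16.6% lower of all genes.

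The tissue label was checked against markers, and none was at 0. The 5 hepatocyte markers had a summed level of 91225 TPM in control and 102237 TPM in erythrodiol liver, with 1 called higher and a median ratio of 0.15. On the TPM scale the median log2 ratio of all genes was 0.31. The summed levels changed 1.12-fold for hepatocyte, 1.01-fold for endothelial and 1.02-fold for stellate markers, each less than that median gene. All 6 Kupffer cell markers were called lower under each scaling, with a median of -0.67 scaled by totals and values from -1.07 for Marco to -0.48 for Timd4, and their summed level was 694 and 476 TPM. Of 5 markers of infiltrating macrophages, 4 were called lower, with a sum of 170 and 132 TPM. For every marker list, the shares over all genes were 24.4% called higher and 8.89% lower when scaled by totals. Under the other scalings, 5.20% to 16.6% of all genes were called lower. Apoe, which macrophages also express, was 0.927 and 1.26 times Clec4f per length. In bulk RNA, fewer cells of a type and less RNA per cell cannot be told apart, and the part of macrophage RNA in the Apoe ratio was not tested. Of the remaining lists, the endothelial and stellate markers had 0 of 4 called each, with sums of 79.8 and 81.0 TPM and of 285 and 290 TPM. The cholangiocyte markers had 2 of 4 called lower, with 9.65 and 8.03 TPM, and the T and B cell markers 1 of 5 called lower, with 3.60 and 4.03 TPM. Those calls were scaled by totals. With the median subtracted, 5 of 5 infiltrating macrophage and 3 of 4 cholangiocyte markers were called lower. So were 2 of 5 T and B cell, 1 of 4 endothelial, 1 of 4 stellate and 0 of 5 hepatocyte markers, beside 16.6% of all genes.

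**Figure D4:**
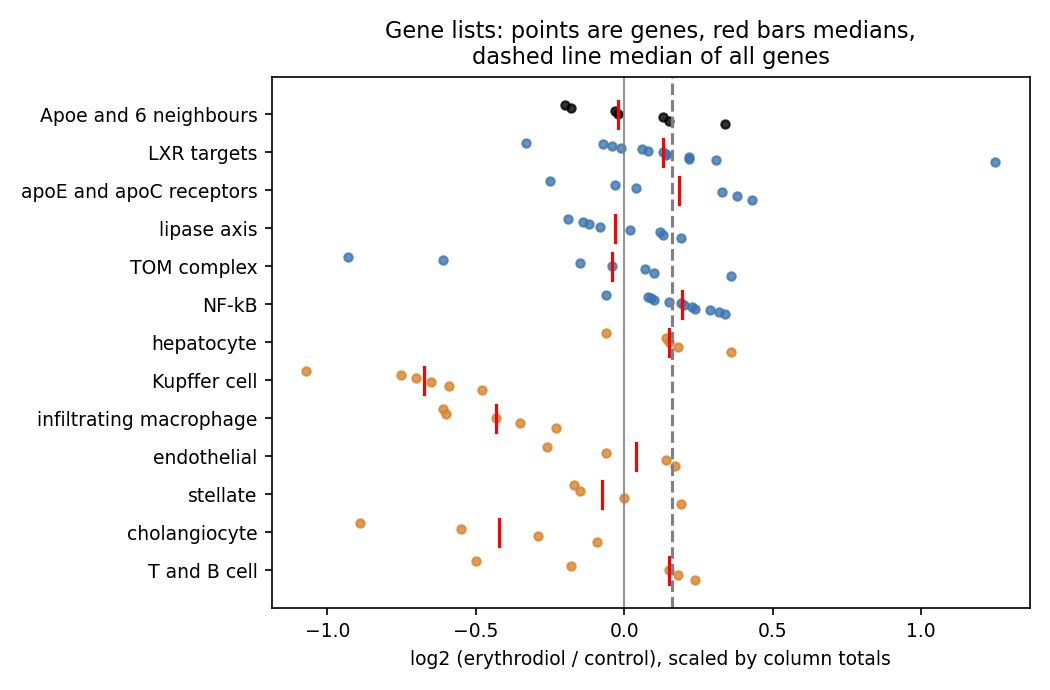
Log2 ratio of each gene with at least 100 counts in the locus and in each list, scaled by totals, with red bars at list medians and a dashed line at the median of all genes, 0.16. The Kupffer cell markers, from -1.07 to -0.48, lie wholly below the locus genes, whose values run from -0.20 to 0.34.

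The authors also deposited coding transcripts that their assembly added to the annotation. The assembly was made once over the libraries of both groups, so it holds no comparison between them and no read counts. By the study's methods, the gene counts were made on a reference that included these transcripts. Their effect on the counts of the locus genes was not tested. Of the locus genes, 4 had such transcripts, 11 in all: Apoc2 had 5, Apoe 3, Apoc1 2 and Tomm40 1, while Apoc4, Clptm1 and Relb had 0. In the table as a whole 28.5% of genes had at least 1 added transcript, 7.49% at least 3 and 3.07% at least 5. The 11 transcripts contained 55 introns, of which 50 were in GENCODE M21.

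The 3 Apoe transcripts began at chr7:19701169, 1981 bases upstream of the furthest Apoe start in GENCODE and 141 bases inside the RefSeq gene. They had 5, 4 and 2 exons and spliced lengths of 2493, 3861 and 4551 bases, against the 1262 bases used as the length of Apoe. Each had an exon across the furthest Apoe start in GENCODE. The join of Apoe exons 3 and 4 shown above (intron of 375 bases) was present in 4 of the 4 added transcripts with Apoe exons, and the join of exons 2 and 3 in 3. The study's methods do not make clear whether the reference annotation guided the assembly, and no read counts come with these transcripts. Their structure alone therefore does not show that reads crossed either join.

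The 1 Tomm40 transcript had 13 exons and 4965 bases and ran from the Tomm40 start to the Apoe end. A single exon of 2847 bases (chr7:19699011-19701857) bridged both genes, and 4 of its exons overlapped Apoe. Apoe and Tomm40 still had whole counts in both groups. All 5 transcripts listed under Apoc2 began at the Apoc4 start and ended at the Apoc2 end. In 4 of them 3 exons overlapped Apoc4, and 1 joined Apoc4 exon 1 to Apoc2 exon 2, the read-through join shown above. The 2 Apoc1 transcripts began upstream of the annotated gene, through introns of 89 and 581 bases that were not in GENCODE. None of the 16 splicing events deposited for the comparison of the groups lay in a gene within 500 kb of Apoe.

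**Figure D5:**
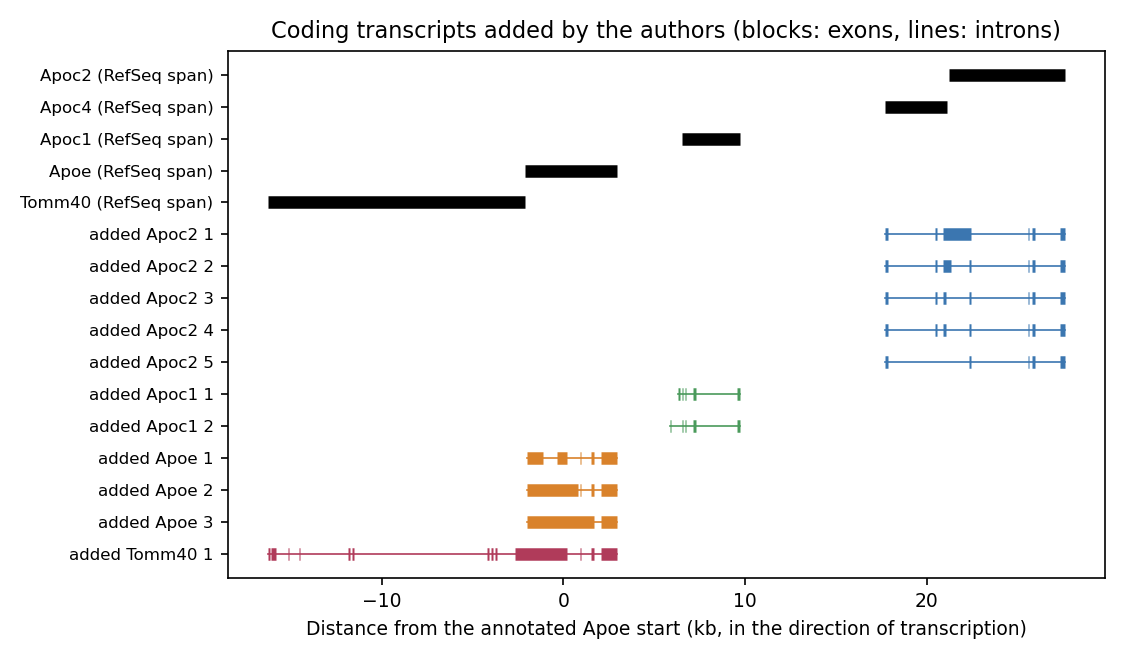
Added transcripts of the locus genes, with exons as blocks and introns as lines, and the RefSeq spans of 5 genes in black. Distance in kb is from the furthest Apoe start in GENCODE along the direction of transcription. The Tomm40 transcript runs on into Apoe, and the 5 Apoc2 transcripts start at Apoc4.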

How the data were processed

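Liver polyA RNA was sequenced in paired-end mode, 7 libraries per group, with groups and replicate numbers taken from the labels. The authors deposited expected counts per gene, made with Bowtie2 and RSEM, 1 column per group that sums 7 libraries (checked against the mapped read pairs that the mapping rates give, 122887639 and 124690110). The authors also deposited, per library, counts of clean reads and mapping rates in percent. Transcripts were assembled and compared with the annotation by the authors with HISAT, StringTie and Cufflinks, and sequence names in that deposited file are those of GRCm38. The added coding transcripts joined the reference to which Bowtie2 mapped the reads, as the study's methods describe. The deposited gene table further holds the authors' log2 ratio, p-value, q-value and call, which were not used. Expected counts were used unrounded, and no count test was made, since there is 1 value per group. The design had allowed for an edgeR test had counts per library been found.

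Ratios were scaled by column totals, and intervals are exact (Clopper-Pearson). The steps were tested on simulated data. Alternatives subtracted the median, subtracted the median of the 500 genes nearest in length, left out the 20 genes of highest count from totals, or added a pseudocount of 1. Ratios of TPM were added after seeing the data. Positions came from RefSeq (GRCm38.p6; 17431 of 17552 gene IDs matched), and sequences and introns from GENCODE M21. Named genes were the 7 members, Apoa1, and genes of the neighbour and pathway lists past the call threshold (a log2 ratio of 0.32) or with the highest or lowest ratio of a list with at least 100 counts. Nectin2 and Gm44805 were named for their place and Lrp8, Clec4f and Tomm6 after their values were seen. Members and lists (LXR targets, receptors, lipase axis, TOM complex, NF-kB, and 7 sets of cell type markers) were chosen with earlier results of these data known, and 1 gene of the receptor list is not reported here. Calculations ran in Python 3.11.15 with scipy 1.17.1 (intervals), numpy 2.4.6 and pandas 2.3.3, and plots in matplotlib 3.10.9.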

Additional observations from a re-analysis of the deposited data

Results flagged for a closer look

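One library stood apart: in control replicate 3, 64.3% of clean reads mapped to genes, the lowest of the 7 control libraries and far from the others by Dixon's criterion, while the control median was 75.3%. Chance flags about 1 in 20 groups. The gene table sums the 7 libraries of a group, so the locus genes could not be given without it.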

How the results depend on the processing

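No paired analysis was possible because the gene counts are deposited as 1 sum per group, and for the same reason no library could be left out. Of 94 alternative values over 20 results, 52 moved by less than the criterion, 42 moved and 0 reversed a called value. The Apoe ratio was -0.36 with the median subtracted and -0.29 without the 20 genes of highest count, and -0.05 as a ratio of TPM, an alternative chosen after seeing the data. The locus genes called higher were 0 with the median subtracted, without those 20 genes, at 1.5-fold and at 2-fold, and those called lower were 2 with the median subtracted. Ranked by count, Apoe was 1671 and 2145. Of all genes, 24.4% were called higher and 8.89% lower when scaled by totals, and 6.31% and 16.6% with the median subtracted. Relative to like length these shares were 5.94% and 13.6%, and without the 20 genes 12.9% and 12.5%. Within 500 kb, 2 of 32 genes were called higher with the median subtracted and 4 without the 20 genes. With the median subtracted 3 were called lower. Within 1000 kb, 15 of 46 genes were called higher and 3 lower when scaled by totals. Over the pathway lists, 7 of 45 measured genes were called higher and 3 lower when scaled by totals. With the median subtracted these were 1 and 5, relative to like length 2 and 6, and without the 20 genes 2 were called higher. Beyond the change of scale, threshold or window itself, the cause of these moves was not tested. Depth limits Relb most, at 702 counts per group.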
